A study of Mus musculus with 12 samples.

Results

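The mitochondrion keeps a small genome of its own, mitochondrial DNA (mtDNA), and this account concerns 48 nuclear genes whose proteins copy that genome, transcribe it, mature its RNA and translate it. The members were listed by name for these roles and matched by symbol to the genes of the count tables, 48 of 48 among 55401 genes, 41 by their present symbol and 7 through an older one. All 48 passed the filter on low counts, which kept 16540 genes. Their mRNA was measured by RNA-seq in subcutaneous white adipose tissue (scWAT) of 12 female mice, 1 mouse in each library and 3 in each of 4 groups, which were 16 weeks old when the treatment began. Wild-type mice (*Jmjd1a* +/+) and mice homozygous for the HY allele (*Jmjd1a* HY/HY, called HY/HY mice here) were kept at 30°C for 1 week and then for 1 week more at either 30°C or 8°C. The HY allele is a knock-in made on the C57BL/6J background that encodes the histone demethylase JMJD1A with the H1122Y substitution, which inactivates the enzyme, and every cell of the animal carries the allele. More than 1 knock-in line was made, and by the study's account its experiments with females used line #1, which makes these mice a single line.

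An adipocyte that makes heat needs many mitochondria, and most proteins of the respiratory chain are encoded in the nucleus, but a few are encoded in mtDNA and are made on ribosomes inside the mitochondrion. Polymerase gamma and the helicase Twinkle copy mtDNA, the RNA polymerase POLRMT transcribes it with the factors TFAM and TFB2M, and long transcripts of both strands are then cut, modified and stabilised. Initiation, elongation and release factors of bacterial type and a set of tRNA synthetases mostly separate from those of the cytosol then translate the mRNAs. In scWAT, cold is known to bring about beige adipocytes, which hold more mitochondria than white adipocytes.

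The libraries held from 13592629 to 26352081 counts on the sense strand of genes, and each library at 8°C held fewer than each library at 30°C. Levels are given as CPM, counts scaled to the size of the library after its correction by the TMM method, as values of single libraries or as mean ± SD of 3 mice. Fold changes are log2 values from a quasi-likelihood model of edgeR fitted to all 16540 genes, and Benjamini-Hochberg adjusted p-values cover all of these genes. Calls between groups needed both an adjusted p under 0.05 and a change past the fold limits of 1.5 (higher) or 0.67 (lower), while the interaction needed the limit on p alone. Cold raised all 7 markers of beige or brown adipocytes in wild-type mice. Their summed level ranged from 75 to 203 CPM in wild-type and from 64.5 to 248 CPM in HY/HY mice at 30°C, from 8430 to 9330 CPM in wild-type mice at 8°C and from 542 to 1700 CPM in HY/HY mice at 8°C, with none of the 7 at 0 in any group. The 9 markers of skeletal muscle summed to 1380 CPM in replicate 2 of the wild-type mice at 30°C and to between 3.86 and 23.3 CPM in the other 11 libraries, with *Ckm* and *Pvalb* at 0 in all HY/HY libraries at 8°C. Macrophage markers summed to 122 to 135 CPM in wild-type and to 208 to 277 CPM in HY/HY mice at 8°C, where 2 of 6 were called higher in HY/HY mice. At 30°C the macrophage sums were 159 to 160 CPM in wild-type and 180 to 318 CPM in HY/HY mice. Endothelial markers summed to 411 to 635 CPM at 30°C and 771 to 1060 CPM at 8°C in wild-type mice, with 4 of 5 called higher, and mammary epithelial markers to 2010 to 3650 and 1310 to 1460 CPM, with 2 of 6 called lower. In HY/HY mice the endothelial sums were 609 to 723 and 611 to 802 CPM, and the mammary sums 515 to 1410 and 730 to 1210 CPM. At 30°C no macrophage, endothelial or mammary marker was called between the genotypes, against 0.562% of all genes called higher and 0.441% lower. White adipocyte markers, which define the labelled tissue, lay between 21800 and 48000 CPM in all libraries, with 2 of 7 called lower by cold in wild-type mice and 2 of 7 called higher in HY/HY mice at 8°C. The part of these cell types in the results below was not tested, and in whole tissue fewer cells of a type and less RNA per cell cannot be told apart.

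In wild-type mice cold raised many of the mRNAs for transcription, RNA processing and translation of mtDNA. Of the 48 members, 24 were called higher at 8°C than at 30°C in wild-type mice, against 10.3% of all genes tested. None of the 48 was called lower in that comparison by edgeR or by DESeq2, against 6.93% of all genes, and 1 member (*Polg2*) was lower at an unadjusted p under 0.05, against 20.2% of all genes. The median log2 fold change was 0.56 over the members and -0.07 over all genes. In 34 of the 48 genes the 3 libraries at 8°C all lay above the 3 at 30°C, which held for 20.7% of all genes. By role, 0 of 5 replication factors, 3 of 7 transcription factors, 9 of 12 RNA processing factors, 5 of 8 translation factors and 7 of 16 tRNA synthetases were called higher. The replication factors had 0 members higher at an unadjusted p under 0.05 as well, against 18.2% of all genes, and DESeq2 called 0. With 5 genes, a count of 0 is near these shares and does not set the replication factors apart from all genes. The median log2 fold changes of the 5 roles, in the same order, were 0.00, 0.52, 0.70, 0.63 and 0.44. Scaling by library totals in place of TMM, which moved the median of all genes to -0.41, left 9 of the 24 called higher (*Fastkd1*, *Gfm1*, *Gfm2*, *Lrpprc*, *Ptcd2*, *Ptcd3*, *Tfb2m*, *Tufm* and *Yars2*) and called *Polg2* lower (log2 -0.72, adjusted p = 0.0144). Without replicate 2 of the wild-type mice at 30°C, the library with the muscle markers, 20 members were called higher.

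**Figure D1:**
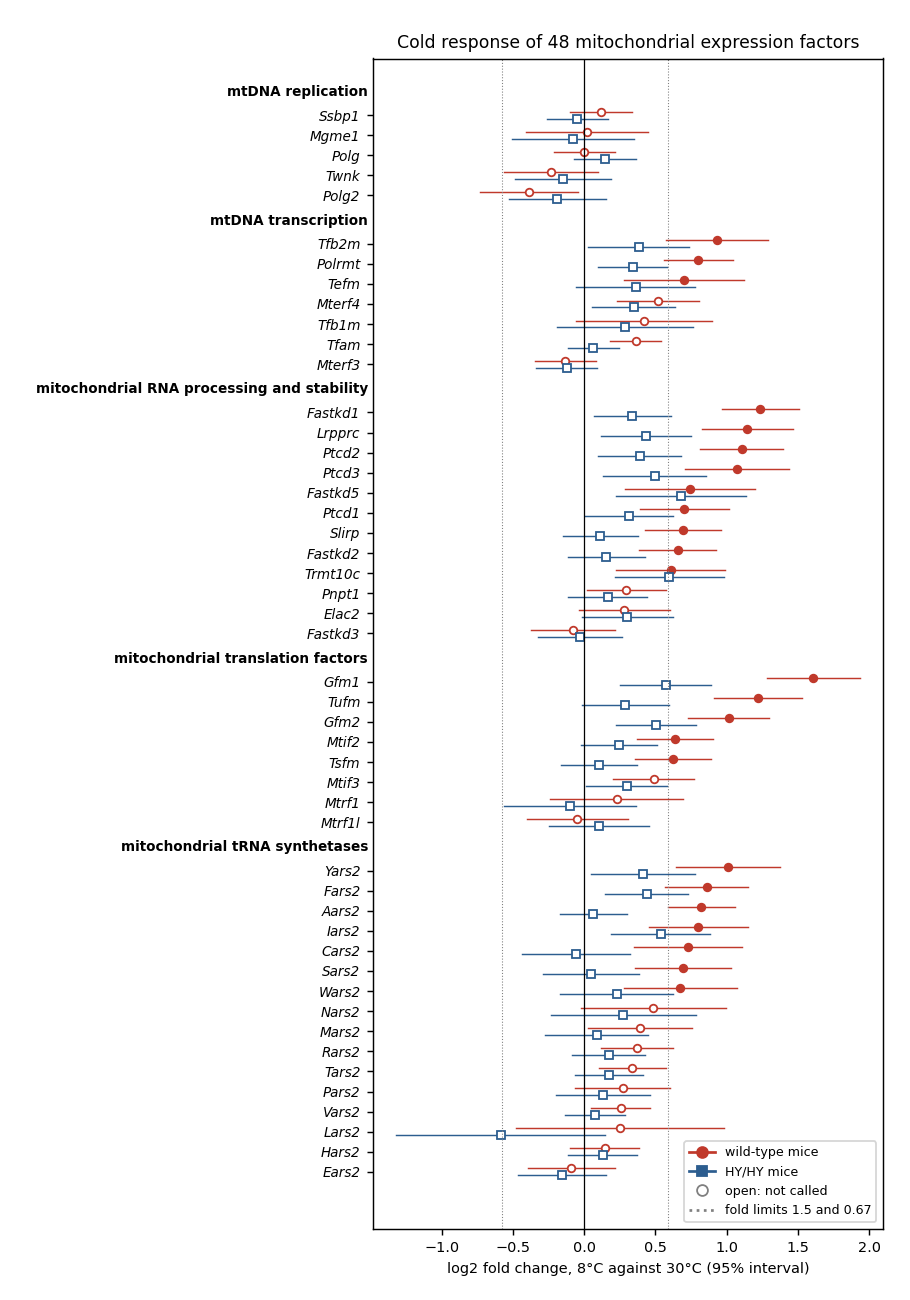
Log2 fold change at 8°C against 30°C of each member in wild-type mice (red circles) and in HY/HY mice (blue squares), grouped by role and ordered by the value in wild-type mice. Lines are 95% intervals, filled symbols were called and open ones were not, and dotted lines mark the fold limits of 1.5 and 0.67: all 24 filled symbols are red and lie to the right of zero, outside the replication group.

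In the cold, a smaller set of these mRNAs was lower in HY/HY mice. At 8°C, 7 of the 48 members were called lower in HY/HY than in wild-type mice, against 4.42% of all genes, and 0 were called higher by edgeR or DESeq2, against 1.51% of all genes. At an unadjusted p under 0.05, 25 members were lower and 0 higher, against 13% and 9.34% of all genes. DESeq2 called 8 members lower, the same 7 and *Yars2*. The count was 1 with library totals in place of TMM, and it was 2 to 4 when any 1 of the libraries at 8°C other than replicate 1 of the wild-type mice was left out. The median log2 difference was -0.31 over the members and 0.01 over all genes, and in 25 members the 3 HY/HY libraries all lay below the 3 wild-type libraries, which held for 19% of all genes. In 23 of the 48 genes the 3 wild-type libraries at 8°C lay above all other 9 libraries, which held for 9.44% of all genes. These 23 were 3 transcription factors, 7 RNA processing factors, 6 translation factors and 7 synthetases, and no replication factor.

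Start-site sequences of members are shown because members of several roles moved together and because GABPA, NRF1, ESRRA and YY1, factors known to bind promoters of nuclear genes for mitochondrial proteins, have short recognised cores. The RefSeq promoter table (build GRCm38.p6, 250 bases before to 50 after each start) held 44 of the 48 members, without *Mterf3*, *Mtif3*, *Hars2* and *Pars2*. The cores searched on both strands were CCGGAAG for ETS factors such as GABPA, GCGCATGCG for NRF1, TCAAGGTCA for ESRRA and AAGATGGCG for YY1, and the ETS and YY1 cores can share their AAG. The ETS core was in 19 of 44 members (43.2%), in 18.3% of the 10033 tested genes with a promoter in the table and in 9.93% of all 27025 genes of the table. The YY1 core was in 7 of 44 members (15.9%), in 3.19% of the tested genes and in 1.64% of all. Of tRNA synthetase genes in the table, the ETS core was in 3 of 11 listed for the cytosol (27.3%) and 4 of 14 mitochondrial members (28.6%). For the YY1 core these were 1 of 11 (9.09%) and 3 of 14 (21.4%). The NRF1 core was in 3 members (6.82%, against 3.79% of the tested genes and 1.95% of all) and the ESRRA core in 1 (2.27%, against 0.349% and 0.466%). Among members with a promoter in the table, the ETS core was in 11 of the 24 that cold raised in wild-type mice and in 8 of the other 20, and the YY1 core in 6 of the 24 and in 1 of the other 20. Among the replication factors, none of them called, the ETS core was in 4 of 5. A match is a description of letters and not evidence of binding. The stretches below run from 100 bases before the start to 8 bases into the transcript, read 5′ to 3′ along the gene, with the ETS core or its reverse complement CTTCCGG in capitals. *Polg* and *Ssbp1* stand for replication factors that were not called, *Tfam* and *Polrmt* for transcription, *Tufm* and *Gfm1* for translation, and *Fastkd1* for a member that was called with none of the 4 cores.
Polg (chr7:79466266-79466373, minus strand, GRCm38.p6): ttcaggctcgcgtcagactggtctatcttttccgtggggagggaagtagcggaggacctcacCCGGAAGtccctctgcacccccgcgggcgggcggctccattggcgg
Ssbp1 (chr6:40471368-40471475, plus strand, GRCm38.p6): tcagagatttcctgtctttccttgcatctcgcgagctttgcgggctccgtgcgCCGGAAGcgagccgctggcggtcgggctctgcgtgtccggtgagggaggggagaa
Tfam (chr10:71238037-71238144, minus strand, GRCm38.p6): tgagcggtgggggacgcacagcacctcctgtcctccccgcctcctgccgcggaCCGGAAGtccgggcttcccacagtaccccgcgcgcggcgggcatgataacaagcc
Polrmt (chr10:79746574-79746681, minus strand, GRCm38.p6): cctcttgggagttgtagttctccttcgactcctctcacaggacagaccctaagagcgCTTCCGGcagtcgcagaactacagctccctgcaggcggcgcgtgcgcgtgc
Tufm (chr7:126487255-126487362, plus strand, GRCm38.p6): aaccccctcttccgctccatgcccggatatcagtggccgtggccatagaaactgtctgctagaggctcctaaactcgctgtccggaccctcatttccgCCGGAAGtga
Gfm1 (chr3:67430015-67430122, plus strand, GRCm38.p6): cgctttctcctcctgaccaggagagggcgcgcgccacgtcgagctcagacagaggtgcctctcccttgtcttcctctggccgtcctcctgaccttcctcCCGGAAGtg
Fastkd1 (chr2:69712599-69712706, minus strand, GRCm38.p6): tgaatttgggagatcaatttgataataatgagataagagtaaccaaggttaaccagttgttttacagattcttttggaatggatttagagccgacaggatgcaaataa
The ETS core began 47 bases before the start in *Tfam* and in *Ssbp1*, 43 before it in *Polrmt* and 38 before it in *Polg*, and it lay across the start in *Tufm* and *Gfm1*, 2 bases and 1 base before it.

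Of the replication factors, none was called by edgeR in any of the 5 comparisons. The shares of all genes called ran from 0.0665% to 10.3% by comparison and direction. With 5 genes, counts of 0 are near these shares. *Polg* encodes the catalytic subunit of the mtDNA polymerase. In wild-type mice it was at 59.5, 57.5 and 67.9 CPM at 30°C and at 64.7, 60.5 and 59.8 CPM at 8°C. In HY/HY mice the levels were 58.5, 53.2 and 60.6 CPM at 30°C and 65.1, 67.4 and 58 CPM at 8°C. The 4 groups overlapped, and the log2 fold change by cold in wild-type mice was 0.00 with a 95% interval from -0.21 to 0.22, which leaves out the fold limit on both sides. *Polg2*, the accessory subunit that clamps the polymerase to its template, was at 8.38, 11.8 and 10.4 CPM at 30°C and 8.83, 8.06 and 6.54 CPM at 8°C in wild-type mice. These groups overlapped by 1 library, and the fitted value was -0.39 (SE 0.16, adjusted p = 0.0922). In HY/HY mice *Polg2* was at 9.68, 10.2 and 9.40 CPM at 30°C and 8.86, 8.68 and 8.11 CPM at 8°C, a log2 fold change of -0.19 (adjusted p = 0.617).

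*Twnk*, the gene of the Twinkle helicase that opens mtDNA ahead of the polymerase, separated the genotypes at both temperatures without passing the edgeR test. It was at 36, 33.4 and 45.7 CPM in wild-type and 25.5, 30.0 and 20.8 CPM in HY/HY mice at 30°C, and at 34.1, 31 and 32.8 CPM and 25.5, 22.9 and 20.5 CPM at 8°C. At each temperature the 3 HY/HY libraries lay below the 3 wild-type libraries. The log2 differences of -0.59 (SE 0.15) at 30°C and -0.50 (SE 0.16) at 8°C missed the call by edgeR, with adjusted p = 0.0803 and 0.0723, while DESeq2 called the one at 30°C (-0.58, adjusted p = 0.0216). *Ssbp1*, which coats single-stranded mtDNA, was at 51.7 ± 4.15 and 56.1 ± 3.29 CPM in wild-type mice and at 49.7 ± 2.76 and 48 ± 4.01 CPM in HY/HY mice at 30°C and 8°C. *Mgme1*, an exonuclease that trims ends of replicating mtDNA, changed by 0.02 in wild-type and -0.08 in HY/HY mice on the log2 scale, and neither passed the test. The summed level of the 5 replication genes lay between 163 and 195 CPM at 30°C and between 167 and 177 CPM at 8°C in wild-type mice, against 151 to 161 CPM and 153 to 160 CPM in HY/HY mice, and the 2 temperatures overlapped in each genotype.

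**Figure D2:**
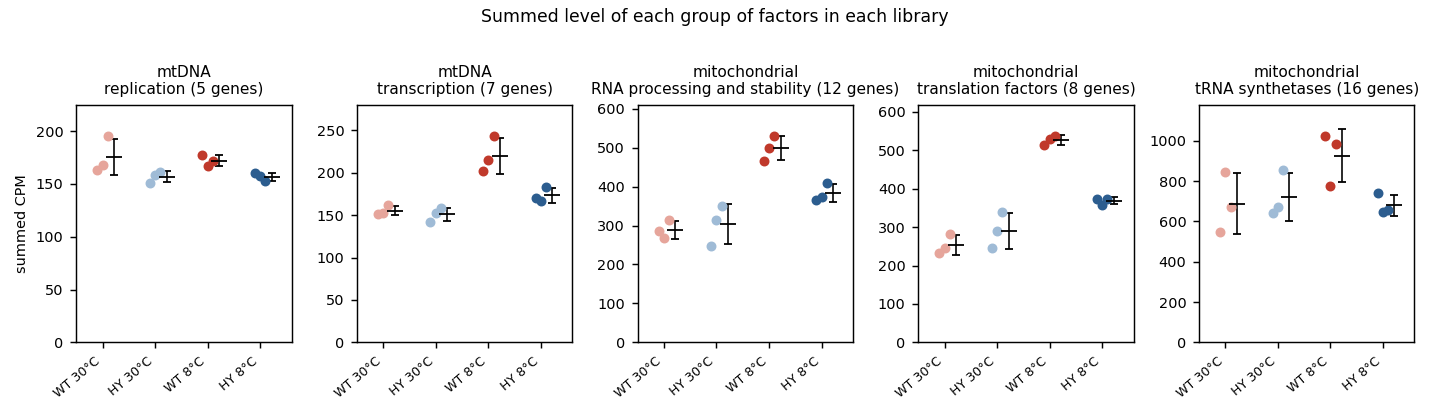
Summed CPM of the members of each role in each library (points), with the mean and SD of 3 mice beside them, for wild-type (WT) and HY/HY (HY) mice at 30°C and 8°C. The replication genes lie between 151 and 195 CPM in all 12 libraries, while the translation factors reach 514 to 537 CPM in wild-type mice at 8°C against 232 to 282 CPM in wild-type and 245 to 338 CPM in HY/HY mice at 30°C.

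In the transcription group, 3 of 7 genes (*Polrmt*, *Tfb2m* and *Tefm*) were called higher with cold in wild-type mice, against 10.3% of all genes. *Tfam* and *Mterf4* passed the limit on p alone. *Polrmt* encodes the RNA polymerase of mtDNA. It was at 23.3, 23.7 and 25.4 CPM at 30°C and 42.9, 38.2 and 44.9 CPM at 8°C in wild-type mice, and at 21.3, 27.5 and 23.2 CPM and 31.3, 29.7 and 30.3 CPM in HY/HY mice. Within each genotype the libraries at 8°C lay above those at 30°C, and the 3 HY/HY libraries at 8°C lay between the 30°C libraries and the wild-type libraries at 8°C. The log2 fold change by cold was 0.80 (SE 0.11, adjusted p = 4.5e-04) in wild-type mice and 0.34 (adjusted p = 0.203) in HY/HY mice. *Tfb2m*, the gene of the factor that opens the mtDNA promoter with POLRMT, was at 24.6, 22.7 and 25.4 CPM at 30°C and 35.5, 48.7 and 54.4 CPM at 8°C in wild-type mice and at 23, 24.8 and 29.6 CPM and 28.6, 34.5 and 37.9 CPM in HY/HY mice. It rose 1.91-fold in wild-type mice (log2 0.93, SE 0.16, adjusted p = 0.00207), and its libraries at 8°C overlapped between the genotypes.

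*Tfam*, whose protein packages mtDNA and bends its promoters, was at 36, 36.9 and 39.6 CPM at 30°C and 47.2, 46 and 51.3 CPM at 8°C in wild-type mice. In HY/HY mice it was at 33.8, 35 and 34.3 CPM and 35, 36 and 36.9 CPM, so that at each temperature all HY/HY libraries lay below all wild-type libraries. The rise of 0.36 (SE 0.08, adjusted p = 0.00867) in wild-type mice and the genotype difference of -0.42 (SE 0.08, adjusted p = 0.0115) at 8°C passed the limit on p and not that on fold change. In HY/HY mice *Tfam* changed by 0.07 with an interval from -0.11 to 0.24. *Tefm*, the elongation factor of mtDNA transcription, rose 1.62-fold in wild-type mice (adjusted p = 0.0219), a call lost without replicate 2 at 30°C or replicate 3 at 8°C (adjusted p from 0.0756 to 0.091). *Mterf4*, which takes part in ribosome assembly, had 0.52 (adjusted p = 0.0159), under the fold limit, and *Tfb1m*, an rRNA methyltransferase gene, had 0.42 (adjusted p = 0.182). *Mterf3*, a negative regulator of mtDNA transcription, averaged 33.5 ± 0.112 CPM at 30°C and, in the cold, 30.6 ± 3.39 CPM in wild-type mice, -0.13 on the log2 scale with adjusted p = 0.351. At 8°C 0 of the 7 transcription genes were called between the genotypes by edgeR or DESeq2. For all genes edgeR called 4.42% lower and 1.51% higher, and with 7 genes a count of 0 is near these shares. At an unadjusted p under 0.05, 4 of the 7 were lower, against 13% of all genes. All 7 differences were below 0, from -0.47 to -0.07, as were those of 8056 of the 16540 genes tested.

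**Figure D3:**
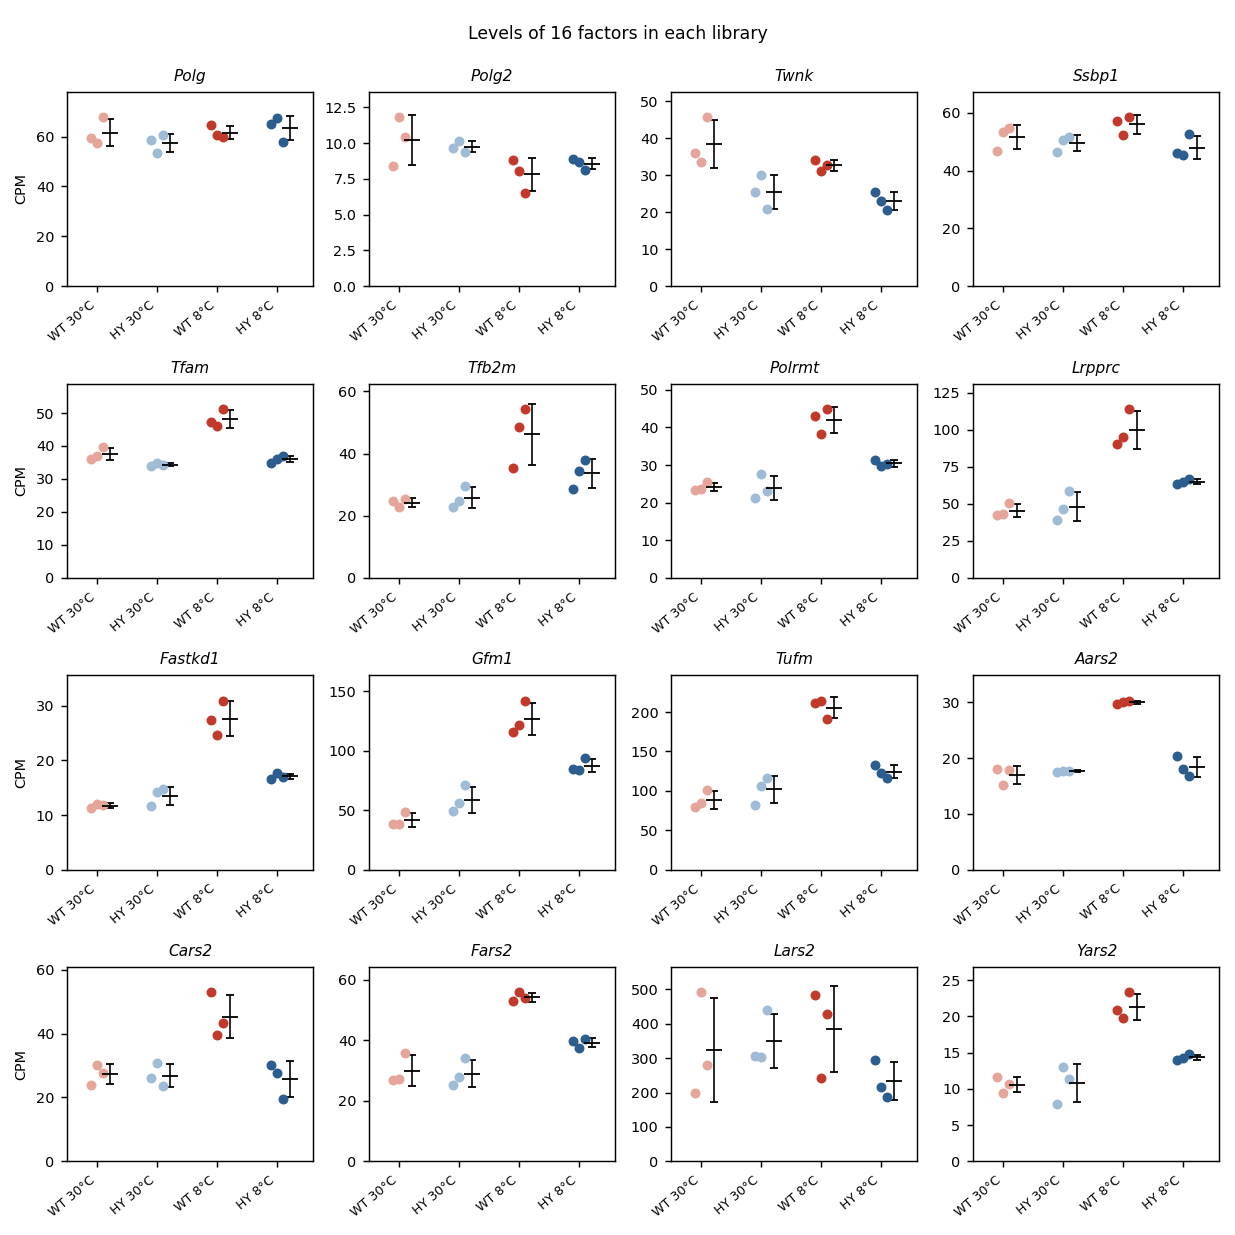
CPM of 16 members in each library (points) with the mean and SD of 3 mice, for wild-type (WT) and HY/HY (HY) mice at 30°C and 8°C, each panel on its own axis from 0. *Gfm1*, *Tufm*, *Fastkd1*, *Lrpprc* and *Aars2* show the 3 wild-type mice at 8°C above all others, *Polg* shows 4 overlapping groups and *Lars2* a wide spread within groups.

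In RNA processing and stability, cold raised 9 of 12 genes in wild-type mice, against 10.3% of all genes called higher. At 8°C, 3 of the 12 were called lower in HY/HY mice, against 4.42% of all genes. *Lrpprc* encodes a protein that binds mitochondrial mRNAs, keeps them from being degraded and promotes their polyadenylation. It was at 42.2, 43.2 and 50.3 CPM at 30°C and 90.2, 95.3 and 114 CPM at 8°C in wild-type mice, and at 39.2, 46.4 and 59 CPM and 63.6, 64.8 and 66.7 CPM in HY/HY mice. The wild-type libraries at 8°C all lay above the HY/HY libraries at 8°C, which in turn lay above those of both genotypes at 30°C. *Lrpprc* rose 2.21-fold in wild-type mice (log2 1.14, SE 0.15, adjusted p = 2.8e-04) and was lower in HY/HY mice at 8°C (log2 -0.62, SE 0.15, adjusted p = 0.0257). That genotype difference was no longer called in 5 of the 6 fits that left out 1 library of its groups (adjusted p from 0.0686 to 0.118), all but the one without replicate 1 of the wild-type mice. *Slirp*, the partner with which LRPPRC forms a complex, rose 1.62-fold (adjusted p = 0.00207) in wild-type mice. Its genotype difference at 8°C of -0.55 passed the limit on p (adjusted p = 0.0188) and not that on fold change. *Slirp* had 538 to 1317 counts per library on its sense strand but 0 to 7 in the column that counts both strands together, so its values rest on the stranded count.

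*Fastkd1*, of a family of RNA-binding proteins that set the levels of single mitochondrial transcripts, was at 11.3, 12.1 and 11.8 CPM at 30°C and 27.4, 24.6 and 31 CPM at 8°C in wild-type mice, and at 11.6, 14.2 and 14.8 CPM and 16.6, 17.6 and 17 CPM in HY/HY mice. The groups at 30°C overlapped, the HY/HY libraries at 8°C lay above them, and the wild-type libraries at 8°C lay above all others. The log2 fold change by cold was 1.24 (SE 0.12, adjusted p = 6.1e-05) in wild-type mice and 0.34 (adjusted p = 0.245) in HY/HY mice, and the difference between the genotypes at 8°C was -0.70 (adjusted p = 0.00720). Its relatives *Fastkd2* and *Fastkd5* rose 1.58-fold and 1.67-fold in wild-type mice (adjusted p = 0.00328 and 0.0245). The call of *Fastkd5* was lost without wild-type replicate 2 at 30°C or replicate 2 or 3 at 8°C (adjusted p from 0.0679 to 0.0941). *Fastkd3*, the fourth of the family here, had -0.08 (interval from -0.37 to 0.22).

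The pentatricopeptide repeat genes *Ptcd1*, *Ptcd2* and *Ptcd3*, whose proteins bind mitochondrial RNA, the last of them in the small ribosomal subunit, rose 1.63-fold, 2.15-fold and 2.11-fold in wild-type mice (adjusted p = 0.00498, 2.0e-04 and 9.9e-04). *Ptcd2* was at 40.2, 42.7 and 49 CPM in wild-type and 27.4, 29.3 and 30.9 CPM in HY/HY mice at 8°C. These libraries did not overlap, and the difference of -0.59 (SE 0.13, adjusted p = 0.0219) was called, though not in the same 5 of 6 fits that left out 1 library (adjusted p from 0.0629 to 0.104). *Trmt10c*, a subunit of the RNase P and tRNA methyltransferase of mitochondria, rose 1.52-fold in wild-type mice (adjusted p = 0.0274), a call lost in 3 fits without 1 library, replicate 2 at 30°C or replicate 2 or 3 at 8°C (adjusted p from 0.0832 to 0.102). In HY/HY mice the cold response of *Trmt10c* was 0.60 on the log2 scale (adjusted p = 0.167), and the genotypes at 8°C differed by -0.01 (interval from -0.39 to 0.37). *Elac2*, which cuts the 3′ ends of tRNAs, and *Pnpt1*, an exoribonuclease, had 0.28 and 0.30 in wild-type mice and did not pass the test (adjusted p = 0.175 and 0.107).

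Among translation factors, the elongation factors *Gfm1* and *Tufm* had the largest changes and the release factors were not called. *Gfm1* encodes the elongation factor G1 that moves the ribosome along the mRNA, and it had the largest rise of all members. It was at 38.4, 38.2 and 48.3 CPM at 30°C and 116, 122 and 142 CPM at 8°C in wild-type mice. In HY/HY mice it was at 49.4, 56.4 and 70.9 CPM at 30°C and 84.6, 83.9 and 94.2 CPM at 8°C. At 30°C the HY/HY libraries all lay above the wild-type libraries, and at 8°C they all lay below them. *Gfm1* rose 3.05-fold in wild-type mice (log2 1.61, SE 0.15, adjusted p = 4.3e-05) and by 0.57 on the log2 scale in HY/HY mice (SE 0.15, adjusted p = 0.131). The genotypes differed by 0.50 at 30°C (adjusted p = 0.106) and by -0.53 at 8°C (adjusted p = 0.0473), the latter short of the fold limit.

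*Tufm*, the gene of the factor EF-Tu that brings charged tRNAs to the ribosome, was at 79.7, 84.7 and 101 CPM at 30°C and 212, 215 and 191 CPM at 8°C in wild-type mice, and at 82.6, 106 and 117 CPM and 133, 123 and 116 CPM in HY/HY mice. The wild-type libraries at 8°C lay apart from all others, and the HY/HY libraries at the 2 temperatures overlapped. It rose 2.33-fold in wild-type mice (log2 1.22, SE 0.14, adjusted p = 1.5e-04) and was lower in HY/HY mice at 8°C (log2 -0.73, SE 0.14, adjusted p = 0.0113), at 0.604 of the wild-type level, a call lost without replicate 3 of the HY/HY mice (adjusted p = 0.0597). *Tsfm*, which recharges EF-Tu with GTP, rose 1.54-fold in wild-type mice (adjusted p = 0.00413) and differed by -0.53 between the genotypes at 8°C (adjusted p = 0.0241), under the fold limit. *Gfm2*, which takes ribosomes apart after termination, rose 2.02-fold (adjusted p = 2.8e-04), and the initiation factor gene *Mtif2* rose 1.55-fold (adjusted p = 0.00372). *Tsfm* without wild-type replicate 1 at 30°C (log2 0.54) and *Mtif2* without replicate 3 at 30°C (log2 0.57) were under the fold limit and no longer called. The other initiation factor gene, *Mtif3*, had 0.49 (adjusted p = 0.0195), short of the fold limit. The release factor genes *Mtrf1* and *Mtrf1l* had 0.23 and -0.05 (adjusted p = 0.469 and 0.860).

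The mitochondrial tRNA synthetases load each mitochondrial tRNA with its amino acid, and 7 of the 16 were called higher by cold in wild-type mice: *Yars2* (2.02-fold), *Fars2* (1.82-fold), *Aars2* (1.77-fold), *Iars2* (1.74-fold), *Cars2* (1.66-fold), *Sars2* (1.62-fold) and *Wars2* (1.60-fold), for tyrosine, phenylalanine, alanine, isoleucine, cysteine, serine and tryptophan. Among all genes, 10.3% were called higher. The call of *Wars2* was lost without wild-type replicate 2 at 30°C or replicate 1 or 2 at 8°C (adjusted p from 0.0501 to 0.0789). *Aars2* was at 18, 15.1 and 17.8 CPM at 30°C and 29.7, 30.0 and 30.3 CPM at 8°C in wild-type mice, and at 17.5, 17.8 and 17.8 CPM and 20.4, 18.1 and 16.9 CPM in HY/HY mice. The HY/HY libraries at 8°C overlapped those of both genotypes at 30°C and lay below the wild-type libraries at 8°C. The log2 values were 0.82 (SE 0.11, adjusted p = 3.0e-04) for cold in wild-type mice, 0.06 with an interval from -0.17 to 0.30 for cold in HY/HY mice, and -0.70 (SE 0.11, adjusted p = 0.00357) between the genotypes at 8°C.

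*Cars2* was at 24, 30.2 and 27.6 CPM at 30°C and 52.9, 39.6 and 43.3 CPM at 8°C in wild-type mice, and at 26, 30.9 and 23.7 CPM and 30.2, 27.7 and 19.4 CPM in HY/HY mice. At 8°C the genotypes did not overlap and differed by -0.81 (SE 0.18, adjusted p = 0.0181), a call lost without replicate 1 or 3 of the wild-type mice or replicate 3 of the HY/HY mice (adjusted p from 0.0575 to 0.074). *Sars2*, at 19 ± 0.507 CPM in wild-type and 12.3 ± 0.956 CPM in HY/HY mice at 8°C, was lower in HY/HY mice (log2 -0.62, adjusted p = 0.0319), a call lost when any 1 was left out of the 6 libraries at 8°C (adjusted p from 0.0738 to 0.128). *Yars2* and *Fars2* differed between the genotypes at 8°C by -0.57 and -0.47, both with HY/HY libraries all below wild-type libraries, and did not pass the limit on p by edgeR (adjusted p = 0.0620 and 0.0560), while DESeq2 called *Yars2* (-0.59, adjusted p = 0.0231). *Iars2* was at 153 ± 3.12 CPM in wild-type and 145 ± 18.8 CPM in HY/HY mice at 8°C, a difference of -0.08 with an interval from -0.42 to 0.27.

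*Lars2*, the leucine enzyme, was the member with the widest scatter within groups. It was at 199, 491 and 279 CPM in wild-type and 306, 304 and 440 CPM in HY/HY mice at 30°C, and at 482, 243 and 428 CPM and 295, 217 and 187 CPM at 8°C. Wild-type libraries of the 2 temperatures overlapped, and neither the cold response of wild-type mice (0.25, SE 0.33, adjusted p = 0.621) nor the genotype difference at 8°C (-0.72, SE 0.34, adjusted p = 0.231) passed the test. Its counts moved from library to library with those of a gene without a symbol in the tables used here (ENSMUSG00000106106.3), picked after the values were seen: that gene had 6.91 to 10.9 times the counts of *Lars2* in the 12 libraries, while the CPM of *Lars2* spanned 2.62-fold. The longest transcript of *Lars2* in the GENCODE M1 set holds no run of 25 bases found in mtDNA. Without *Lars2* the other 15 synthetases gave sums of 346 to 391 CPM at 30°C and 533 to 554 CPM at 8°C in wild-type mice, and of 334 to 416 and 428 to 469 CPM in HY/HY mice, so that the 8°C libraries of the 2 genotypes did not overlap.

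The 8 further synthetase genes, *Ears2*, *Hars2*, *Mars2*, *Nars2*, *Pars2*, *Rars2*, *Tars2* and *Vars2*, which charge tRNAs for glutamate, histidine, methionine, asparagine, proline, arginine, threonine and valine, were not called in any comparison. They are the synthetases left after the called ones and *Lars2* were taken out, so this was fixed by the choice. The shares of all genes called ran from 0.0665% to 10.3% by comparison and direction. The log2 fold changes of these 8 by cold in wild-type mice ran from -0.09 (*Ears2*) to 0.49 (*Nars2*), and *Rars2* and *Tars2* passed the limit on p alone (adjusted p = 0.0384 and 0.0413). Of the 18 synthetase genes of the cytosol that were listed beside them, 0 were called in any of the comparisons by edgeR, and their median log2 fold change by cold in wild-type mice was 0.06, from -0.69 to 0.44, against 0.44 for the mitochondrial enzymes. At an unadjusted p under 0.05 edgeR gave 6, 0, 1, 2 and 0 of them for cold in wild-type mice, cold in HY/HY mice, the genotypes at 8°C, the genotypes at 30°C and the interaction, and DESeq2 called 1, 0, 0, 0 and 0. The shares of all genes at that limit were 38.4, 14.7, 22.4, 18.6 and 15%. The synthetase genes *Gars* and *Kars* stood in the list of other translation and tRNA charging genes and not among these 18. The count of 0 called therefore does not cover them. In wild-type mice *Gars* averaged 91.6 ± 11.1 CPM at 30°C and 196 ± 9.71 CPM at 8°C, and *Kars* 93.7 ± 5.08 and 86.4 ± 4.05 CPM. In HY/HY mice at 8°C they averaged 129 ± 2.01 and 84.5 ± 2.55 CPM.

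**Figure D4:**
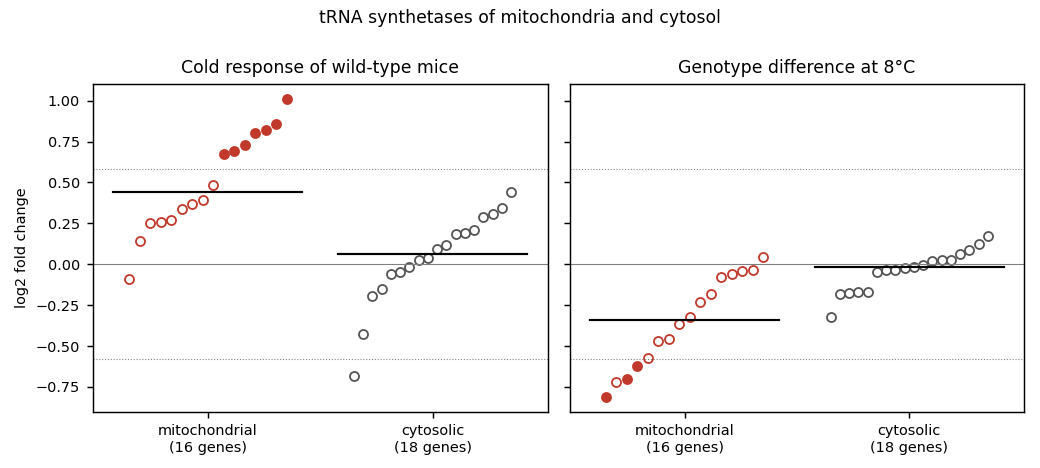
Log2 fold change of each tRNA synthetase gene, ordered by value, for cold in wild-type mice (left) and for HY/HY against wild-type mice at 8°C (right). Filled points were called, the bar is the median, and dotted lines mark the fold limits: 7 mitochondrial enzymes are called on the left and 3 on the right, and none of the 18 listed cytosolic enzymes in either. Among all genes, 10.3% were called higher in the left comparison and 4.42% lower in the right one.

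No member was called in the cold response of HY/HY mice. By edgeR 0 of 48 members were called, against 0.181% of all genes called higher and 0.0665% called lower, and DESeq2 called 0. At an unadjusted p under 0.05, 16 members were higher and 0 lower, against 7.65% and 7.02% of all genes. The median log2 fold change was 0.17 over the members and -0.01 over all genes. In 15 members the 3 libraries at 8°C lay above the 3 at 30°C, against 9.33% of all genes, and in 4 (*Polg2*, *Mterf3*, *Ears2* and *Lars2*) below, against 8.99%. Deviations of same-numbered HY/HY libraries of the 2 temperatures had correlations of 0.112, 0.199 and 0.303, which were not tested, and the labels do not pair them. With the replicate number as a block 1 member, *Gfm1*, was called (log2 0.59, adjusted p = 0.0233). Replicate 3 was the highest of its group in 34 of the 48 members in HY/HY mice at 30°C, and in 29, 31 and 27 in wild-type mice at 30°C, wild-type mice at 8°C and HY/HY mice at 8°C. Without HY/HY replicate 3 at 30°C, 5 members were called higher by cold in HY/HY mice: *Gfm1*, *Gfm2*, *Lrpprc*, *Iars2* and *Fastkd5* (log2 0.61 to 0.87).

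**Figure D5:**
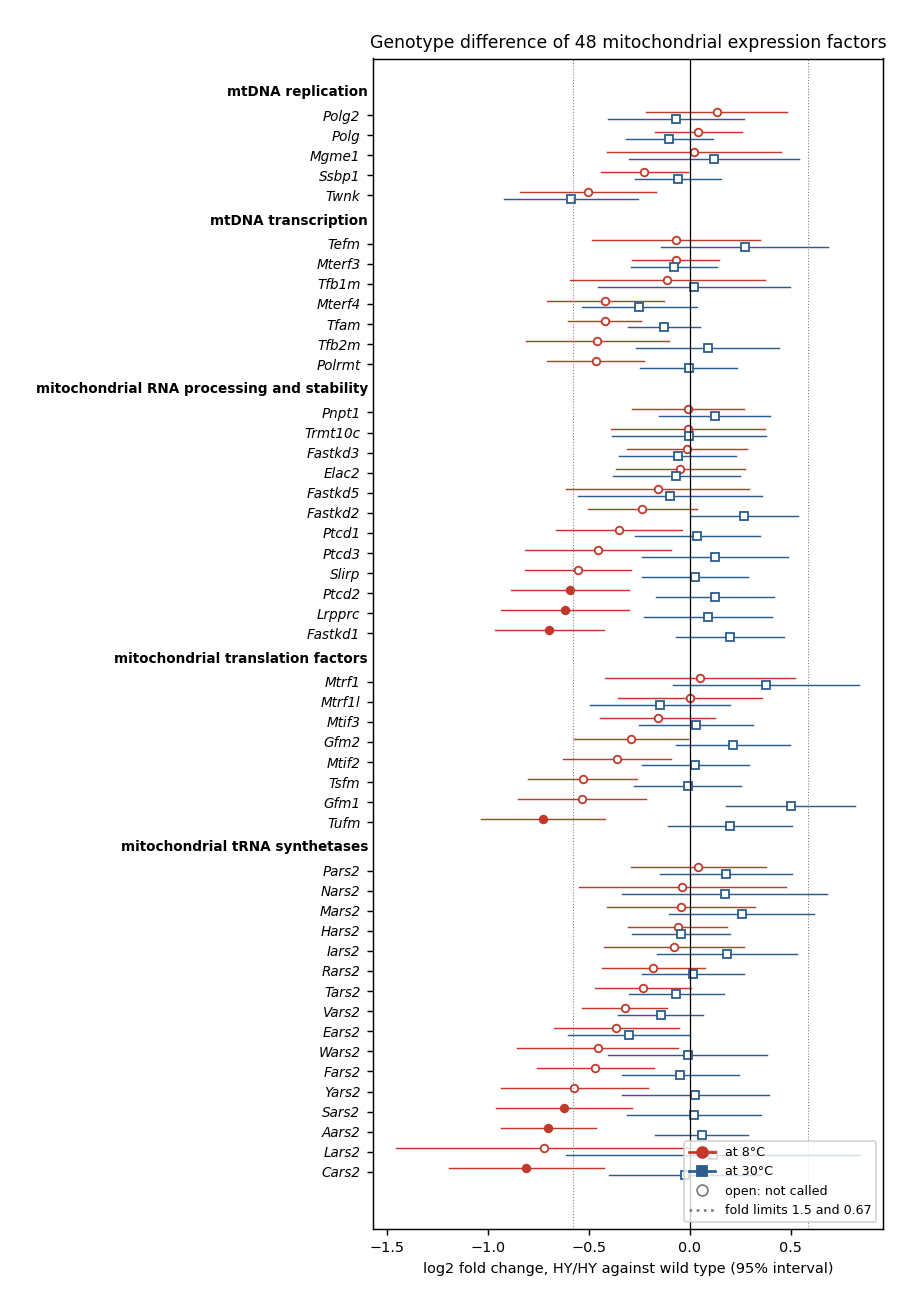
Log2 fold change of HY/HY against wild-type mice for each member at 8°C (red circles) and at 30°C (blue squares), grouped by role and ordered by the value at 8°C, with 95% intervals. Filled symbols were called: 7 members are filled at 8°C, all left of zero, and none at 30°C, where the median is 0.03.

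At 30°C no member was called between the genotypes by edgeR. Of the 48 members 0 were called by edgeR, against 0.562% of all genes called higher and 0.441% lower, and 3 had an unadjusted p under 0.05, *Gfm1* and *Fastkd2* higher and *Twnk* lower, against 8.36% of all genes higher and 10.3% lower. In 1 member, *Gfm1*, the 3 HY/HY libraries all lay above the 3 wild-type libraries, against 7.67% of all genes, and in 4 (*Twnk*, *Tfam*, *Mterf3* and *Mterf4*) below, against 10.6%. The median log2 difference was 0.03, against -0.01 over all genes. DESeq2 called 1, *Twnk*.

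The difference between the 2 cold responses was tested for each gene as the interaction. It was called for 4 members, all with a smaller rise in HY/HY mice, against 2.07% of all genes called lower, and for 0 in the other direction by edgeR or DESeq2, against 0.169% of all genes. At an unadjusted p under 0.05, 0 members lay that way, against 5.4% of all genes. The 4 were *Gfm1* (-1.03, SE 0.21, adjusted p = 0.0297), *Tufm* (-0.93, SE 0.20, adjusted p = 0.0357), *Fastkd1* (-0.90, SE 0.17, adjusted p = 0.0270) and *Aars2* (-0.76, SE 0.15, adjusted p = 0.0295), factors of ribosome movement, tRNA delivery, RNA stability and alanine charging. At an unadjusted p under 0.05, 19 members had a smaller rise in HY/HY mice, against 9.61% of all genes with a lower value, and the median over all 48 was -0.30 against 0.04 over all genes. DESeq2 called 7, adding *Slirp*, *Ptcd2* and *Lrpprc*. With library totals in place of TMM, 1 member (*Gfm1*) was called, and the median was -0.0867 over the members and 0.25 over all genes. Leaving out single libraries gave from 0 to 10 members called, with 0 in 8 of the 12 fits. *Lrpprc* had an interaction of -0.71 (adjusted p = 0.109) by edgeR without a block. With the replicate number as a block edgeR called 6 members, adding *Ptcd2* (-0.71, adjusted p = 0.0197) and *Lrpprc* (-0.69, adjusted p = 0.031). Without the block the replication factors ran from -0.17 (*Ssbp1*) to 0.20 (*Polg2*).

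Of 55 other genes of the same pathways, listed by name, 18 were called higher and 0 lower by cold in wild-type mice by edgeR, and 9 were called lower and 0 higher in HY/HY mice at 8°C. For all genes these shares were 10.3% called higher and 6.93% lower by cold, and 4.42% called lower and 1.51% higher at 8°C. DESeq2 likewise called 0 lower by cold and 0 higher in HY/HY mice, and at an unadjusted p under 0.05 edgeR gave 5 and 0. The shares of all genes at that limit were 20.2% lower by cold and 9.34% higher in HY/HY mice. The median log2 values were 0.37 for cold in wild-type mice and -0.26 for the genotypes at 8°C. Of 11 genes for mtDNA maintenance, 3 rose in wild-type mice and 1 was lower in HY/HY mice at 8°C, *Endog*, an endonuclease of the mitochondrial intermembrane space (-1.12, adjusted p = 0.00286), while *Rrm2b*, a subunit of ribonucleotide reductase, had the highest value (0.34, adjusted p = 0.229). Of 24 genes for RNA processing and modification, 9 rose in wild-type mice and 3 were lower in HY/HY mice at 8°C, the lowest being *Fastk*, the founding gene of the FASTK family (-0.94, adjusted p = 0.00341), and the highest value was that of *Trmt5* (0.15, adjusted p = 0.625). Of 20 genes for translation, tRNA charging and ribosome assembly, 6 rose and 5 were lower in HY/HY mice at 8°C, the lowest being *Rmnd1* (-0.94, adjusted p = 0.0113).

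Other nuclear genes for mitochondrial proteins also moved. In wild-type mice 69 of 74 subunit genes of the respiratory chain and ATP synthase and 47 of 71 mitochondrial ribosomal protein genes were called higher by cold, with medians of 1.49 and 0.74 against 0.56 for the members, and at 8°C 64 and 24 were called lower in HY/HY mice, with medians of -0.997 and -0.50 against -0.31. These 2 lists were chosen by symbol after the files were seen, and the difference between lists was not tested. Of 8 nuclear regulators of mitochondrial genes, *Ppargc1a* and *Ppargc1b*, coactivators of mitochondrial biogenesis, *Esrra* and *Gabpa* rose with cold in wild-type mice (log2 2.72, 1.52, 1.22 and 1.10) and were lower in HY/HY mice at 8°C (-1.33, -1.76, -0.90 and -0.64). *Nrf1* and *Yy1* had -0.21 and 0.13 by cold and were not called, and *Pprc1*, a relative of *Ppargc1a*, was called lower by edgeR (-0.61) and not by DESeq2. The mRNAs that mtDNA itself encodes summed to 96180 to 126700 CPM in wild-type mice at 30°C, 164000 to 199600 CPM in wild-type mice at 8°C, 79190 to 181700 CPM in HY/HY mice at 30°C and 118600 to 135400 CPM in HY/HY mice at 8°C, and the 8°C libraries of the 2 genotypes did not overlap. Of the 13 mRNAs in this sum, 0 were called between the genotypes at 8°C by edgeR, against 4.42% of all genes called lower and 1.51% higher. At an unadjusted p under 0.05, 2 were lower, against 13% of all genes, and DESeq2 called 1 lower. For cold in wild-type mice edgeR called 4 higher, against 10.3% of all genes. The 13 differed widely in level, and the sum rests on the abundant ones. In wild-type mice at 8°C *mt-Co1* averaged 70020 CPM, *mt-Co2* 15.9 CPM and *mt-Nd4l* 0.761 CPM. Both mtDNA rRNAs rose with cold in wild-type mice (log2 2.95 for *mt-Rnr1* and 2.91 for *mt-Rnr2*) and were lower in HY/HY mice at 8°C (-2.22 and -1.97). Read pairs aligned to several places are not in these counts.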

How the data were processed

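RNA-seq of scWAT was available for 12 mice, 3 in each of 4 groups, which were taken from the sample labels. The authors used fastp to trim paired reads and STAR to map them to mm10, and deposited raw counts per gene of GENCODE M25, 1 table for each library with no pooling; their FPKM values (StringTie) were not used here. Each table gives counts for both strands and for each strand alone, and the sense strand was used. The 4 rows of a table that name no gene stayed out of library sizes (55.8 to 63.5% of its total). Genes with low counts were removed with filterByExpr, which left 16540 of 55401 genes, and edgeR 4.0.16 in R 4.3.3 was used for TMM scaling and 1 quasi-likelihood fit over all 12 libraries. The 4 contrasts between groups and the interaction were tested, and p-values were adjusted over all genes by Benjamini-Hochberg. The fit was tested on simulated data with 200 changed genes. The p-values set each difference against the spread between mice within groups, as the model estimates it over the 4 groups. An exact permutation test of 3 against 3 libraries cannot go below p = 0.1. Alternatives were DESeq2 1.42.0, other scaling, filters, strand, limits and libraries, and a replicate block. Deviations of same-numbered libraries were correlated between temperatures in HY/HY mice (r = 0.112, 0.199 and 0.303), and r ran from -0.055 to 0.346 in the other contrasts. These correlations were not tested, and the labels do not state that same-numbered libraries are related. Members given with values were *Tfam*, *Polrmt*, *Polg*, *Twnk*, *Lrpprc* and *Tufm*, the 2 per role with the largest change by cold in wild-type mice and between genotypes at 8°C, and those called in the other comparisons or called lower by cold; values of further members were added after they were seen. The members and lists were chosen with earlier results of these data known. For the other genes of the same pathways, the lowest and highest difference between genotypes at 8°C are given per list, except 1 value that is not reported here. Promoter sequences are from RefSeq.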

Additional observations from a re-analysis of the deposited data

Results flagged for a closer look

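For 4 members the cold response differed between the genotypes by a test of the difference itself (edgeR interaction), always with a smaller rise in HY/HY mice. The difference, as the log2 response in HY/HY mice less that in wild-type mice, was -1.03 for *Gfm1* (adjusted p = 0.0297), -0.93 for *Tufm* (0.0357), -0.90 for *Fastkd1* (0.027) and -0.76 for *Aars2* (0.0295). Of the 12 fits that each left out 1 library, the call was lost in 9 for *Gfm1*, 10 for *Tufm*, 8 for *Fastkd1* and 9 for *Aars2*, with adjusted p from 0.0501 to 0.104. With library totals in place of TMM the call was kept for *Gfm1* alone, and with the replicate block for all 4.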

How the results depend on the processing

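Of the alternatives for counts and medians of the members, 281 values stayed within the limits set for them and 36 did not, and of those for single called members 601 kept the call, 94 lost it and 0 reversed. With library totals in place of TMM, the medians of all genes were -0.41, -0.15, 0.15, -0.08 and 0.25 for cold in wild-type mice, cold in HY/HY mice, the genotypes at 8°C, the genotypes at 30°C and the interaction, and those of the members were 0.22, 0.0407, -0.17, -0.0501 and -0.0867, the fourth with its sign reversed; members called were then 9 higher and 1 lower by cold in wild-type mice, 1 lower at 8°C and 1 lower in the interaction. With the replicate block, 1 member was called higher by cold in HY/HY mice and 6 were called in the interaction, and the other counts did not change. DESeq2 called 8 members lower at 8°C, 1 lower at 30°C and 7 in the interaction. Without the fold limits 12 members were lower at 8°C, and at an adjusted p under 0.01, 2 were, with 0 in the interaction. Leaving out each library in turn gave 20 to 25 members higher by cold in wild-type mice, 0 to 5 in HY/HY mice (5 without HY/HY replicate 3 at 30°C) with a median of 0.12 to 0.26, 2 to 7 lower at 8°C (2 without HY/HY replicate 3 at 8°C, 3 without wild-type replicate 3, and 4 without wild-type replicate 2 or HY/HY replicate 1 or 2), a median of -0.0419 to 0.13 at 30°C, and 0 to 10 in the interaction (10 without HY/HY replicate 1 at 30°C, 1 without wild-type replicate 2 at 8°C) with a median of -0.41 to -0.18. With 3 mice per group, differences near the fold limit were not resolved.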
